A study of Mus musculus with 2 samples.

Results

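Interferon-stimulated genes were followed in T cells from 1 library of adult mouse back skin and 1 library of adult mouse lung. The module is a list of 45 genes that cells switch on when an interferon binds its receptor. They were matched by Ensembl identifier, and 44 of the 45 were found among the 27514 identifiers listed for both tissues; Mx2 was not analysed here. Levels were read in the cells that held at least 1 UMI of Cd3d, Cd3e and Cd3g together, the genes of the CD3 complex that every T cell carries. These were 6400 of 6601 skin barcodes and 8349 of 8730 lung barcodes.

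Both tissues were digested with collagenase and sorted for reporter-positive T helper cells (GFP, CD4, CD3 and CD45 all positive), GFP being driven by Foxp3, the transcription factor of regulatory T cells. The skin cells came from Foxp3-CreERT2GFP C57Bl/6 mice, whose reporter also carries a tamoxifen-dependent Cre, and the lung cells from Foxp3-GFP C57Bl/6 mice that the label calls Tachilla strain. The labels name no treatment and no exact age, and do not say how many mice were pooled. Tissue, reporter strain, library, annotation version and T cell state differ together, so that their parts in any difference cannot be told apart. With 1 library per tissue there was no replicate and no test. Intervals in brackets are exact 95% intervals and cover counting error only.

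Interferons are secreted alarm signals. Type I interferons (alpha and beta) bind the receptor of IFNAR1 and IFNAR2, interferon gamma binds that of IFNGR1 and IFNGR2, and JAK kinases then activate transcription factors of the STAT family. A complex that holds STAT2 and IRF9 binds a promoter element called ISRE and turns on antiviral genes such as the IFIT, OAS and Mx families, whereas the GAS element serves genes such as Irf1 and the guanylate-binding proteins. Some of these genes also have low tonic expression in resting T cells.

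Promoters are shown first because the module is defined by how its genes are switched on. RefSeq windows on GRCm38.p6, from 250 bases before to 50 after a gene's start, were on hand for 35 of the 44 genes. The core of the ISRE was searched as GAAANNGAAA on both strands (read as TTTCNNTTTC on the other). It stood in 19 of the 35 members, 54.3%, against 3.99% of all 27025 genes with a window. The GAS core TTCNNNGAA, a palindrome, stood in 10 of the 35, 28.6%, against 9.55% of genes. Of the members with a window that also passed the expression floor described below, those 4 that stood highest in lung relative to skin and those 2 that stood lowest are printed here, and capitals mark the ISRE core.

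Slfn1 (chr11:83116570-83116869, plus strand): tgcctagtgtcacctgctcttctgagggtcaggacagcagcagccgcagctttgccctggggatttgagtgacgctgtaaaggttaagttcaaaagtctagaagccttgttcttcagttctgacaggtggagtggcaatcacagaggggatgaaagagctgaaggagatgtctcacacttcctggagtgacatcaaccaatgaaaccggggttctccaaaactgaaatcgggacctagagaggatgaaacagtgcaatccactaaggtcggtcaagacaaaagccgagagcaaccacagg
Ifit3 (chr19:34583279-34583578, plus strand): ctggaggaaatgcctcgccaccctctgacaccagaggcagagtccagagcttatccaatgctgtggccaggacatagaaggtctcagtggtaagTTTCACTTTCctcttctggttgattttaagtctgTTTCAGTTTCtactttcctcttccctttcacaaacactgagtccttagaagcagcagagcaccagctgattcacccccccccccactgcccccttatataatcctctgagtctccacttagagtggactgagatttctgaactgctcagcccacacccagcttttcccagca
Oasl2 (chr5:114896684-114896983, plus strand): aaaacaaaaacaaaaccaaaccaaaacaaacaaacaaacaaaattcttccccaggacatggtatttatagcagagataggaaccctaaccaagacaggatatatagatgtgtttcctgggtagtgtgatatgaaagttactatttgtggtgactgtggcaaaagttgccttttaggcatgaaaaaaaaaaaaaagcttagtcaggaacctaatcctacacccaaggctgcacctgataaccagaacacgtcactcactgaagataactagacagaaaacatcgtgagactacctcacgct
Ifit1 (chr19:34640639-34640938, plus strand): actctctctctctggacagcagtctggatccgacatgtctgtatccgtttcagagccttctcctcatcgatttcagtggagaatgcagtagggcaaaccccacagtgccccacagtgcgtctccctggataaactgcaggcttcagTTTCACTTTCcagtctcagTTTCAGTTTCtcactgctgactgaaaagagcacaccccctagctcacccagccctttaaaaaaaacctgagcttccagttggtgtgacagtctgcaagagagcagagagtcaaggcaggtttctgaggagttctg
Herc6 (chr6:57580742-57581041, plus strand): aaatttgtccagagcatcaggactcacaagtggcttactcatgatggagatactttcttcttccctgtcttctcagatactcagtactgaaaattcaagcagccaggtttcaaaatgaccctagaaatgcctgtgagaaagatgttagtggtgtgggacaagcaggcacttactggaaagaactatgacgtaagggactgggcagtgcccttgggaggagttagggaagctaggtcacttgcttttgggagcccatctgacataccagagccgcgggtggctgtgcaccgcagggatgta
Gbp7 (chr3:142530086-142530385, plus strand): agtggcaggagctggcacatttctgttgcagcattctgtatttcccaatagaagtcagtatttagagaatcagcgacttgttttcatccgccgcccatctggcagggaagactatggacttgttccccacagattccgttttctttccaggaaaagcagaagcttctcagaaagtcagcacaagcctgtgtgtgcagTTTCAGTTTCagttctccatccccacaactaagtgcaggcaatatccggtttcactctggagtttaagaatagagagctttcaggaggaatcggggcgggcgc

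Ifit3 and Ifit1 each hold 2 copies of the ISRE core and Gbp7 holds 1, while no copy lies in the windows of Slfn1, Oasl2 or Herc6. The motif therefore occurred at both ends of the tissue ratio. Among members with a window that passed the floor, the median log2 ratio of lung over skin was 0.53 for the 17 with the motif and 0.90 for the 14 without. Of these, 4 with and 3 without the motif were at least 2-fold higher in lung, against 6.25% of all 9317 genes past the floor.

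The cells were checked against the sort. Cd3d stood at 964 CPM (a gene's UMIs scaled to the same total of shared-gene UMIs in each library) in skin and 908 CPM in lung, and Cd8a at 0.0632 and 1.41 CPM. A Cd4 UMI was seen in 31.4% of skin and 24.2% of lung cells. A Foxp3 UMI was seen in 5.70% and 3.62%, so the Foxp3 transcript itself was rarely caught, while at least 1 UMI of 6 regulatory T cell genes was seen in 95.6% and 80.0% of cells thinned to 1000 UMIs. The cells of the 2 tissues also differed in state. In thinned cells the mean was 0.842 UMIs in skin and 4.99 in lung for 7 recirculating T cell genes, and 7.42 and 0.751 for 10 effector genes. It was 21.4 and 6.17 for 13 early response genes, and 3.01 and 0.409 for 6 genes of the T cell receptor response. The part of cell state in the tissue ratios was not tested. Cells held a median of 2083.5 UMIs in skin and 2384 in lung. Genes of ribosomal proteins made up 19.0% of the UMIs of skin cells and 38.2% of those of lung cells, which lowers every other gene's CPM in lung. The libraries had 82 barcode sequences in common, carried by 80 skin and 77 lung cells. At least 2 UMIs of marker genes of a non-T cell type were present in 1529 skin and 2867 lung cells. The macrophage or monocyte list used for this includes Ccr2, which is also among the 10 effector genes above. T cells that express Ccr2 can therefore be among these cells.

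Interferon-stimulated genes were on balance higher in lung T cells. A member was read against the floor when it reached 5 CPM in either library, which 38 did, and was called when log2 of the ratio of CPM + 1 was at least 1 in size. Of the 38, 11 were at least 2-fold higher in lung, against a background of 6.25% of all 9317 genes past the floor. None was 2-fold higher in skin, although 17.9% of all genes were, and 27 lay within 2-fold. The median log2 ratio was 0.72 for the members and -0.36 for all genes. Counting intervals of the ratio lay above 1 for 27 members, below 1 for 3 (Gbp4, Gbp7 and Parp14) and across 1 for 8.

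Scaling mattered because of the ribosomal share. When libraries were scaled by the median ratio of well-expressed genes, 21 of 39 members were called in lung, against 9.87% of all genes, and the median was 1.03. With ribosomal protein and mitochondrial genes left out of the totals, 24 of 41 were called, against 11.5% of all genes, and the median was 1.15. Of the calls among all genes, 25.9% were on the lung side in CPM, 46.0% under the first scaling and 50.3% under the second, and the median of all genes moved to -0.03 and 0.03. Relative to the median of all genes the members stood at 1.07, 1.06 and 1.11 under the 3 scalings. No member was called in skin under any of them.

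**Figure D1:**
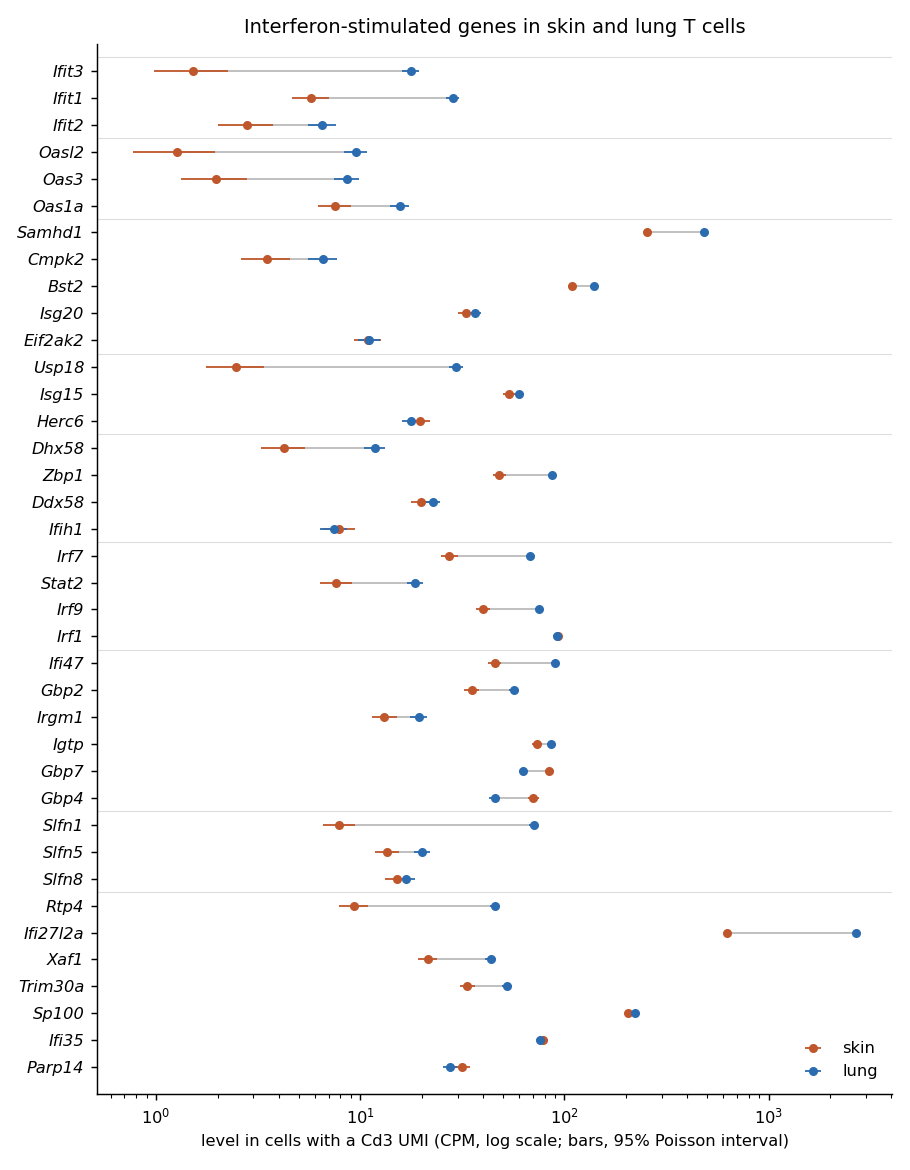
Level of each of the 38 members past the floor in skin (orange) and lung (blue), in CPM on a log axis with exact 95% Poisson intervals, grouped by role from the IFIT family at the top to the remaining members at the bottom. The widest gaps are those of Usp18, Ifit3, Slfn1 and Oasl2, and Gbp4 and Gbp7 are the members that lie clearly on the skin side.

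The IFIT proteins bind viral RNA and block its translation. Ifit3 stood at 1.52 CPM in skin (24 UMIs) and 17.7 CPM in lung (415 UMIs), a ratio of 11.7 (7.74 to 18.4). Ifit1, which recognises the unmethylated cap of foreign RNA, was at 5.75 CPM in skin and 28.3 CPM in lung, 4.93-fold higher (3.95 to 6.20). Both have 2 separate ISRE cores in their windows, as does Ifit3b. Bst2, Irgm1 and Oas1a have 2 matches and Isg15 has 3, but in these genes the matches overlap. Of these 7 members Ifit3b was below the floor, and only Ifit1 and Ifit3 were called, against a background of 6.25% of all genes. Ifit2 went from 2.78 to 6.53 CPM, a ratio of 2.35 (1.67 to 3.36), and just missed the call at a log2 of 0.99. Ifit3b, a near-identical copy of Ifit3 whose reads may be split between them, stayed below the floor at 1.90 and 3.80 CPM. The 4 genes together reached 11.9 CPM in skin and 56.4 CPM in lung, 4.72-fold higher (4.05 to 5.52).

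OAS enzymes sense double-stranded RNA and make the messenger that activates RNase L. Oasl2, an OAS-like protein, stood at 1.26 CPM in skin (20 UMIs) and 9.52 CPM in lung (223 UMIs), a ratio of 7.53 (4.76 to 12.6). Oas3 was at 1.96 and 8.62 CPM, 4.40-fold higher in lung (3.004 to 6.65). The family was thus faint in both tissues and higher in lung. Oas1a, which has several close paralogs, went from 7.52 to 15.6 CPM, short of a call. Oasl1 had 0 UMIs in skin and 96 in lung (4.10 CPM), which is 21.6-fold above a limit of 3 counts in the skin library. The exact lower limit of its ratio was 17.2. Oas2 had 1 and 33 UMIs, a ratio of 22.3 with a wide interval (3.73 to 906).

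In the group of Mx, viperin and related effectors, 0 of the 5 past the floor were called in CPM. The background of 6.25% gives too few calls to read anything from 5 genes. Samhd1, which depletes the nucleotides that viral replication needs, was at 255 CPM in skin and 481 CPM in lung, 1.89-fold higher (1.82 to 1.96). Bst2 (tetherin), which holds budding virions at the cell surface, was at 109 and 140 CPM. Neither was called. Cmpk2, a mitochondrial nucleotide kinase, went from 3.48 to 6.57 CPM. Its neighbour on chromosome 12, Rsad2 (viperin), was below the floor at 1.83 and 4.74 CPM, a ratio of 2.58 (1.70 to 4.03). Mx1, an antiviral GTPase also below the floor, had 7 and 42 UMIs, a ratio of 4.05 (1.80 to 10.7). Samhd1 and Cmpk2 were called in lung under both other scalings, against 9.87% and 11.5% of all genes. Isg20, an exonuclease, and Eif2ak2, the kinase PKR, stood at 33.1 and 10.9 CPM in skin and 36.7 and 11.1 CPM in lung, with intervals of the ratio that held 1.

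The ISG15 system split. ISG15 is a ubiquitin-like protein that is attached to other proteins during an interferon response, and USP18 removes it and also shuts off signalling at the type I receptor. Usp18 stood at 2.47 CPM in skin (39 UMIs) and 29.4 CPM in lung (690 UMIs), a ratio of 11.9 (8.65 to 16.9) and the widest among the members past the floor. Isg15 itself was at 53.5 CPM in skin and 60.3 CPM in lung, 1.13-fold (1.03 to 1.23). With cells thinned to 1000 UMIs the log2 ratio of Isg15 was -0.04, so its direction is not settled. Herc6, the mouse ligase that attaches ISG15, was at 19.6 and 17.7 CPM with an interval that held 1.

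Among the sensors, Dhx58 (LGP2), a regulator of the RIG-I-like receptors, stood at 4.24 CPM in skin and 11.8 CPM in lung, 2.78-fold higher (2.12 to 3.69). The receptors it regulates, Ddx58 (RIG-I) at 19.9 and 22.7 CPM and Ifih1 (MDA5) at 7.90 and 7.42 CPM, had ratios whose intervals held 1. Zbp1, which senses Z-form nucleic acid and can trigger cell death, went from 48.0 to 87.0 CPM, a ratio of 1.81 (1.67 to 1.97).

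Of the transcription factors of the response, Irf7, the amplifier of type I interferon production, was at 27.3 CPM in skin and 68.1 CPM in lung, 2.49-fold higher (2.24 to 2.78). Stat2, which acts with IRF9, was at 7.65 and 18.6 CPM, 2.43-fold higher (1.98 to 2.99). Irf9 was 1.87-fold higher (1.70 to 2.05), at 40.1 and 74.97 CPM, short of a call. Irf1, which is driven through GAS elements, stood at 93.0 and 91.7 CPM, level between the tissues.

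The GTPases typical of the interferon gamma response had a median log2 ratio of 0.37. Over the role groups this median ran from 0.17 in the ISG15 system to 2.12 in the IFIT family. In the group of Mx, viperin and related effectors it was 0.36. Of 6 GTPases measured, 0 were called in CPM, where the background of 6.25% gives too few calls to read anything from 6 genes. Under each of the other scalings 2 of them (Gbp2 and Ifi47) were called, against 9.87% and 11.5% of all genes. The 6 genes summed to 322 CPM in skin and 360 CPM in lung, 1.12-fold (1.08 to 1.16). Gbp4 was at 70.5 CPM in skin and 45.6 CPM in lung, a ratio of 0.65 (0.59 to 0.70), and Gbp7 at 84.5 and 62.9 CPM, a ratio of 0.74 (0.69 to 0.80). These guanylate-binding proteins, which coat vacuoles that hold pathogens, were the 2 members below 0 under every scaling. Ifi47 and Gbp2 pointed the other way, from 45.6 to 89.7 CPM and from 35.1 to 56.8 CPM, and Igtp and Irgm1 had ratios of 1.17 and 1.47. Gbp genes and Igtp have close copies, and reads shared between them could be assigned unevenly.

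Schlafen genes were named for their link to T cell growth arrest. Slfn1, the founding member, stood at 7.90 CPM in skin (125 UMIs) and 70.8 CPM in lung (1660 UMIs), a ratio of 8.97 (7.47 to 10.8). Its relatives Slfn5 and Slfn8 were at 13.5 and 15.1 CPM in skin and 20.1 and 16.8 CPM in lung; Slfn8 has close copies, so its value is uncertain. The family sum of 36.5 and 108 CPM therefore came mostly from 1 gene in lung.

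Of the remaining members, Ifi27l2a, a small interferon-inducible membrane protein, was at 624 CPM in skin and 2671 CPM in lung, 4.28-fold higher (4.19 to 4.37). It gave 29.4% of all member UMIs in skin and 54.8% in lung. Summed over all members the level was 2123 and 4874 CPM, a ratio of 2.30 (2.27 to 2.32), and without Ifi27l2a it was 1499 and 2203 CPM, a ratio of 1.47 (1.45 to 1.49). Rtp4, a receptor transporter protein, went from 9.29 to 45.7 CPM, 4.92-fold higher (4.14 to 5.89). Xaf1, a pro-apoptotic factor, stood at 21.4 and 43.6 CPM, and its log2 of 0.99 was the highest just outside the call together with Ifit2, while Stat2 at 1.18 was the lowest inside. Trim30a, a gene with close copies, went from 33.4 to 52.4 CPM, and Sp100, a nuclear body protein, was at 206 and 222 CPM. Ifi35 and Parp14, at 78.8 and 31.6 CPM in skin and 76.3 and 27.6 CPM in lung, had log2 ratios of -0.05 and -0.19. Their sign, and that of Herc6, Ifih1 and Irf1, turned positive under both other scalings. Ifi44 had 1 UMI in skin and 20 in lung, a ratio of 13.5 (2.16 to 560).

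Whether the tissue difference came from a few strongly responding cells or from most cells was examined with 19 antiviral genes (the IFIT and OAS members, Usp18, Isg15, Rtp4, Ifi44, Rsad2, Mx1, Cmpk2, Irf7, Zbp1 and Xaf1), called the antiviral core. Each cell was thinned to 1000 UMIs; 76 lung cells and 0 skin cells were too shallow for this. At least 1 core UMI was present in 15.4% of skin and 28.1% of lung cells, and at least 2 in 2.17% and 8.40%. At least 3 were present in 0.547% of skin cells (35 of 6400, 0.381% to 0.760%) and 2.94% of lung cells (243 of 8273, 2.58% to 3.32%). Without thinning, these shares were 3.39% and 13.6%. Another random draw gave 0.406% and 3.42%, and a core without Isg15 gave 0.203% in skin (13 cells) and 2.37% in lung.

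Cells with 3 or more core UMIs are called core-high below. They are a range and not a cell type, since 104 skin and 452 lung cells lay at 2 UMIs and 22 and 112 at exactly 3. The tail was longer in lung, where 54 cells held 6 or more core UMIs against 7 in skin, and the highest counts were 15 and 10. The variance of core UMIs over cells was 1.44 times the mean in skin and 2.12 times in lung. Core-high cells held a median of 2426 UMIs in skin and 2520 in lung before thinning, against 2076 and 2376 in the other cells. Among lung barcodes with no Cd3 UMI but at least 2 UMIs of a non-T cell marker list, 7 of 160 were core-high (4.38%, 1.78% to 8.81%), and 0 of 27 in skin, whose upper bound is 12.8%. Without T cells that carried 2 such UMIs, the core-high share was 0.575% in skin and 2.82% in lung.

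**Figure D2:**
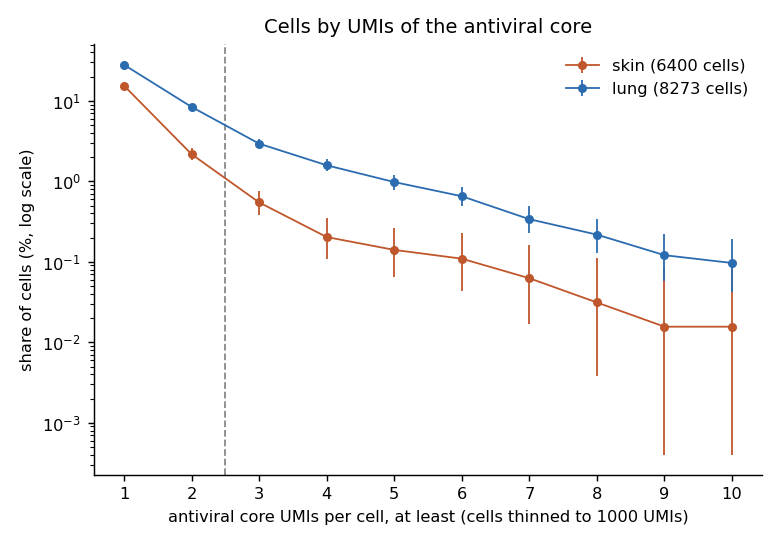
Share of cells with at least the given number of antiviral core UMIs after thinning to 1000 UMIs, on a log axis with exact 95% binomial intervals, in skin (orange) and lung (blue); the dashed line marks the start of the core-high range. The lung values lie above the skin values at each count shown, at 2.94% against 0.547% for 3 or more UMIs, and the intervals overlap at 9 and 10.

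The comparison was repeated without core-high cells. Core-high cells held 11.8% of the core UMIs of skin and 29.9% of those of lung. For single members the range was set by the core UMIs other than their own. Without core-high cells the median log2 ratio of the 38 members went from 0.75 to 0.64 on thinned counts, and the 12 members called on thinned counts, the 11 above and Ifit2, were all called. The largest drop was that of Ifit3, from 3.16 to 2.73, followed by Oas3 from 1.87 to 1.56. Usp18 went from 3.53 to 3.42, and Slfn1 stayed at 2.90 and 2.89. Isg15 went from -0.04 to -0.31, and Isg20 from 0.11 to -0.09. At 1000 UMIs a responding cell can hold fewer than 3 core UMIs, so responding cells that were missed and a shift in all cells cannot be told apart.

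**Figure D3:**
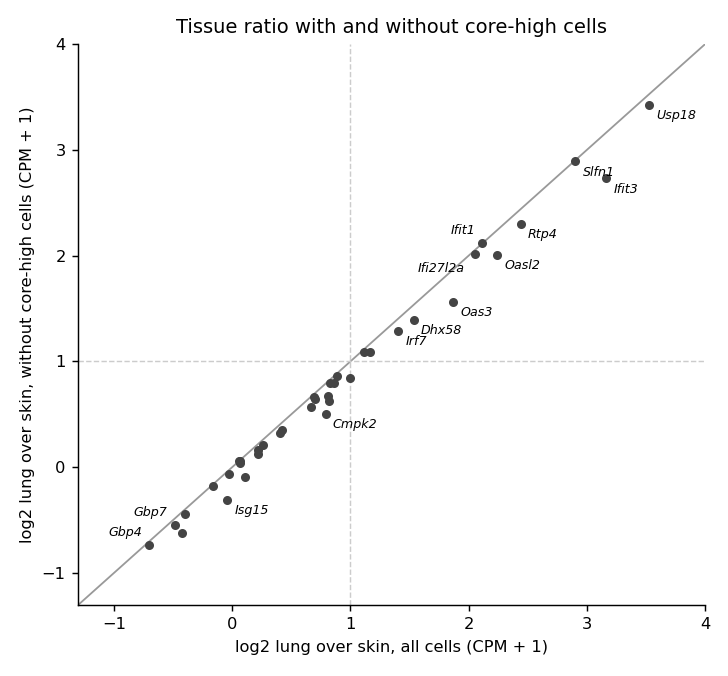
Log2 ratio of lung over skin (CPM + 1, thinned cells) for the 38 members past the floor, with all cells on the x axis and without core-high cells on the y axis; the solid line marks equality and the dashed lines 2-fold. Points lie on or little below the line, with Ifit3 the farthest below it.

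Members differed in how much of their RNA sat in core-high cells. In lung, these were at most 2.94% of cells. They held 38.8% of Ifit3 UMIs, 28.5% of Ifit1, 24.4% of Oasl2, 22.8% of Isg15 and 20.8% of Usp18. Of Slfn1 UMIs they held 10.8% and of Ifi27l2a UMIs 7.03%, and Samhd1 and Irf1 lay at 5.15% and 3.30%. Outside the core, 22 of 25 members past the floor in lung were at least 2-fold higher in core-high cells, against 5.77% of other genes; the exceptions were Samhd1, Irf1 and Sp100. The median of this ratio was 3.03 for the members and 0.98 for all genes outside the core. Ifit1, Ifit3 and Isg15 thus had a larger part of their lung UMIs in core-high cells than Slfn1 and Ifi27l2a did. This was not a divide between core and other genes. The core genes Ifit2 and Oas1a lay at 8.33% and 8.25%, and Ifih1, outside the core, at 22% of 50 UMIs.

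**Figure D4:**
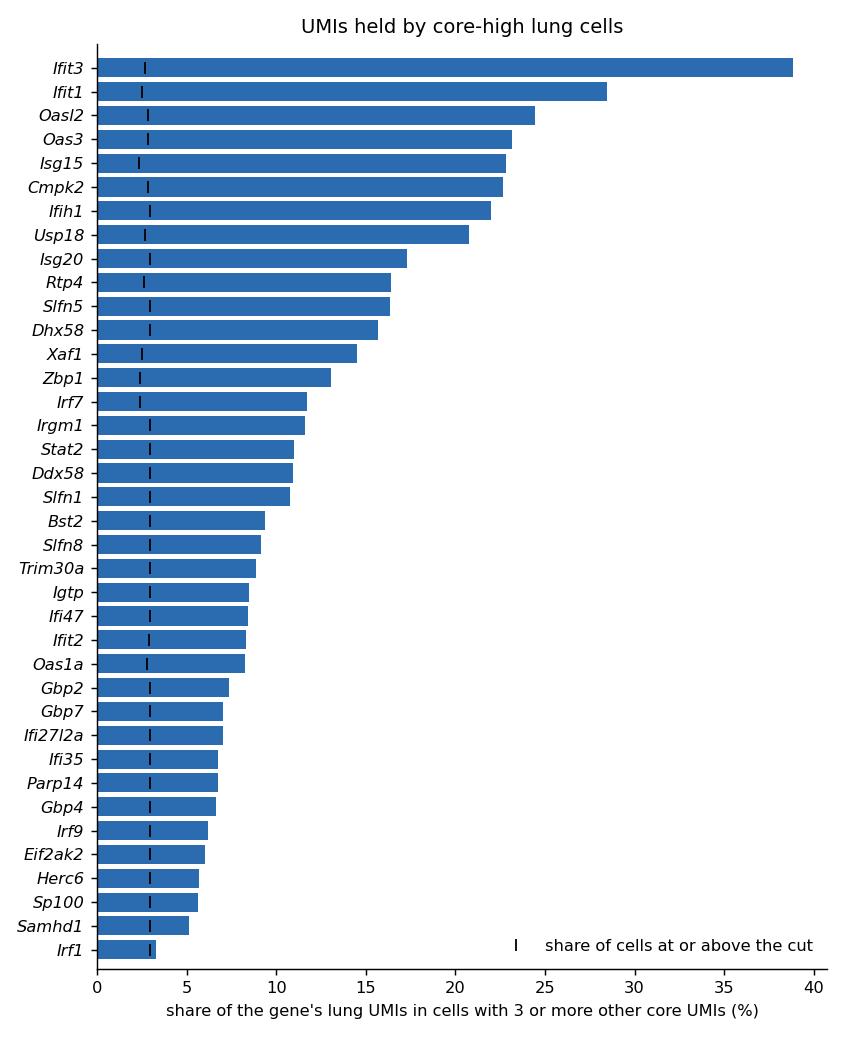
Share of each member's lung UMIs (bars, %) that lay in cells with 3 or more UMIs of the other core genes, for the 38 members at 5 CPM or more in lung; black ticks mark the share of cells in that range. Ifit3 leads at 38.8% and Irf1, at 3.30%, lies near its tick.

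Members tended to be seen in the same cells. In lung, 22 of 25 members outside the core were found in cells with at least 1.5-fold more core UMIs than cells without that member, against a background of 3.26% of genes. In skin it was 12 of 24 against 4.11%. The median ratio over all members past the floor, with a core gene's own UMIs left out, was 2.10 in lung and 1.74 in skin, and that of all genes outside the core was 1.00 and 0.99. The limits of 1.5 here and of 1.1 in the next paragraph were set after the members' values had been seen.

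Cell-to-cell spread was described by the variance over the mean of a gene's UMIs in thinned cells, which is near 1 when UMIs fall on cells by chance of sampling alone. A value of at least 1.1 was reached by 7 of 31 members in skin, against 9.47% of genes, and by 13 of 38 in lung, against 8.83%. Ifi27l2a was the most uneven in both, at 1.75 in skin and 3.13 in lung. It was followed in lung by Isg15 (1.47), Gbp2 (1.38), Ifit1 (1.29) and Ifit3 (1.23), and in skin by Ifit1 (1.56), Isg15 (1.35), Gbp2 (1.20) and Igtp (1.17). The uneven value of Ifit1 in skin rests on 39 UMIs in 31 cells.

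Ifi27l2a showed a broad shift. An Ifi27l2a UMI was seen in 36.8% of skin and 75.5% of lung cells at 1000 UMIs, and the median cell held 0 in skin and 2 in lung. The highest 10% of cells held at least 2 UMIs in skin and 6 in lung. All members together gave a median of 2 UMIs per cell in skin and 4 in lung, and without Ifi27l2a 1 and 2. The non-T barcodes described above held an Ifi27l2a UMI in 40.7% of 27 cells in skin and 31.9% of 160 in lung, so that the skin T cells did not exceed them and the lung T cells did (24.7% to 39.7% for the non-T barcodes). Such cells can answer interferon themselves. In lung the interval of the T cell share lay above that of the non-T barcodes for 4 of 38 members (Samhd1, Zbp1, Ifi27l2a and Sp100), below it for 5 (Bst2, Stat2, Gbp2, Slfn5 and Xaf1) and met it for 29. Among the 29 were Slfn1 (6.72% against 4.38%), Usp18 (2.65% against 5%), Ifit1 (2.63% against 5.63%) and Ifit3 (1.81% against 4.38%). For the members not above it, a T cell holding a UMI cannot be told from background RNA by its share. The 27 skin barcodes were too few to separate members by share. With all T cells that carried 2 or more non-T UMIs left out, 12 members were called in lung and the median log2 ratio was 0.72. The share of all genes called in those cells was not counted.

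Core-high cells were compared with other cells of the same library by genes that mark T cell states. In lung, a UMI of S100a4, a gene of effector T cells, was seen in 15.6% (11.3% to 20.8%) of core-high and 9.51% of other cells. In skin an S100a4 UMI was seen in 54.3% (36.6% to 71.2%) of core-high and 67.8% of other cells, and the interval held the latter share. Of other effector genes in lung, Areg was seen in 1.23% (0.255% to 3.57%) of core-high and 2.86% of other cells. Cxcr3, Ccr2 and Itgae leaned with S100a4, at 3.70%, 5.35% and 1.65% of core-high against 2.30%, 2.95% and 0.996% of other cells. For Areg and for each of these, the interval held the share of the other cells. In lung, Ccr7, the lymph node homing receptor, was seen in 30.0% (24.4% to 36.2%) and 36.9%, and S1pr1, which lets T cells leave lymph nodes, in 29.2% (23.6% to 35.4%) and 24.0%. The recirculating markers Ccr7 and S1pr1 thus pointed in different directions, and the median sum of 7 recirculating genes was 4 and 5 UMIs. The 6 regulatory T cell genes had a median of 2 UMIs in both lung sets, and 8 cell cycle genes a median of 0.

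Marker lists of other cells were read in the same way. Any UMI of the macrophage or monocyte list was seen in 11.5% of core-high and 7.16% of other lung cells. That list includes Ccr2, read above as an effector gene, which alone was seen in 5.35% and 2.95%. The 2 readings are therefore not separate. Any UMI of the dendritic cell list was seen in 5.35% and 3.59%. The mean UMIs of the macrophage and dendritic cell lists lay the other way, at 0.136 and 0.233 for macrophages and 0.0658 and 0.0809 for dendritic cells. The lung epithelial list gave shares of 33.7% and 33.4% and means of 0.416 and 1.66 UMIs, and the plasmacytoid dendritic cell list shares of 2.88% and 2.43%. The part of macrophage RNA in the core-high cells was not tested. Ifi27l2a was also read by state gene. In lung cells with an S100a4 UMI it reached 4121 CPM against 2190 CPM without. With a UMI of Cxcr3, a chemokine receptor of effector T cells, it reached 4582 against 2324 CPM, and with Ccr2 4388 against 2314 CPM. The effector genes Areg and Itgae showed little gap, at 2356 against 2378 CPM and 2619 against 2375 CPM. Cells with a UMI of Mki67, a cell cycle gene, stood at 4056 against 2370 CPM, on 36 cells. In skin, cells with and without S100a4 stood at 563 and 587 CPM, and those with and without Cxcr3 at 726 and 569 CPM.

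The genes upstream of the module showed no shift to lung in CPM beyond that of all genes. In 5 lists of ligands, receptors, kinases with STATs, sensing adaptors and brakes, 36 of 51 genes passed the floor, of which 2 were at least 2-fold higher in lung, 7 in skin and 27 in neither, near the backgrounds of 6.25% and 17.9%. Their median log2 ratio was -0.29, close to the -0.36 of all genes. Under median-of-ratios scaling 4 of these 36 were called in lung and 4 in skin, against 9.87% and 11.6% of all genes. Without ribosomal protein and mitochondrial genes it was 6 and 4, against 11.5% and 11.3% of all genes. Ifng, Ebi3, Mb21d1 and Irf5 were the skin calls under all 3 scalings, and Ifngr2 and Stat5b were lung calls under all 3. No UMI of any listed type I or type III interferon was found in either library, which allows up to 0.190 CPM each in skin and 0.128 CPM in lung. Ifng, the T cell's own interferon, was at 14.2 CPM in skin and 4.31 CPM in lung, a ratio of 0.30 (0.24 to 0.39). Ebi3, a subunit of the cytokines IL-27 and IL-35, was at 58.0 and 6.10 CPM, and Il27 had no UMI.

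Receptor genes were present in both tissues. Ifnar1 stood at 197 CPM in skin and 122 CPM in lung and Ifnar2 at 38.8 and 48.6 CPM. Ifngr1 was level at 450 and 448 CPM, while Ifngr2, the signalling chain for interferon gamma, was 2.12-fold higher in lung (1.92 to 2.34), at 34.2 and 72.4 CPM.

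Among kinases and STATs, Jak2 was at 45.4 and 19.9 CPM and Jak1 at 262 and 205 CPM. Stat5b, which acts downstream of interleukin 2, was 2.38-fold higher in lung (2.17 to 2.62). Of the 12 sensing genes past the floor, 3 were called in skin, against a background of 17.9%. They were Mb21d1 (cGAS, the DNA sensor) at 6.19 and 1.92 CPM, Irf5 at 29.6 and 9.64 CPM, and Traf3 at 26.2 and 11.4 CPM. Traf3 was not called under either other scaling, where Ikbke, a kinase of the sensing path at 23.3 and 44.3 CPM, was called in lung. Socs1, which blocks JAK kinases after interferon signalling, was at 93.0 CPM in skin and 40.9 CPM in lung, and its relative Socs3 at 52.6 and 95.4 CPM. Under both other scalings the skin calls of Socs1 and Jak2 were lost and Socs3 was called in lung.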

How the data were processed

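As deposited, the matrices give unnormalized UMI counts for each gene in each barcode, made with Cell Ranger on mm10 per the submitters' processing notes, from 10x Single Cell 3' v2 libraries per the labels' protocols. The lung header names software version 3.0.2; annotations listed 27998 genes in skin and 31053 in lung. A second lung table, with 8626 of the same barcodes and 92.1% of their UMIs, served only as an alternative. Cells needed 200 or more genes and no more than 10% mitochondrial UMIs (6467 skin and 8641 lung barcodes). UMIs in shared genes, 15820166 in skin and 23434633 in lung, were summed over T cells and scaled to CPM. No doublet caller was run; leaving out the 6% of cells with most UMIs is an alternative. Gene positions came from GENCODE M21. Python 3.11.15, numpy 2.4.6 and scipy 1.17.1 were used, and the scripts were tested on simulated data. Members and lists were chosen with earlier results of these data known. All 45 members are accounted for by role; the 12 with the widest ratio and the 5 most uneven per tissue were to be described in full. No gene of the other annotation overlaps a member on its strand. Some genes of the pathway and state lists are not reported here.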

Additional observations from a re-analysis of the deposited data

How the results depend on the processing

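With 1 library per tissue nothing here has a replicate check, and at these depths a single core gene cannot be read in a single cell. No paired analysis was possible because each tissue has 1 library. The count of 0 members called in skin held under every alternative run, and 7 of the 11 lung calls stayed at least 2-fold in each of the 15 to 16 settings run for them; the exceptions were Dhx58 (0.86), Stat2 (0.90) and Oas3 (0.97) with a pseudocount of 5 CPM, and Irf7 (0.96) and Stat2 (0.41) in cells with a Foxp3 UMI. Of the 38 members, 28 stayed above 0 in each setting. The count of 11 became 21 with median-of-ratios scaling, 24 with totals without ribosomal protein and mitochondrial genes, and 6 with a floor of 20 CPM. The median of 0.72 became 1.03 and 1.15 under these scalings. The summed ratio of 2.30 became 2.89 and 3.02 under them, 2.14 without cells with 2 non-T UMIs, 2.43 in cells with a Foxp3 UMI, 2.18 without the 6% of cells with most UMIs, 2.20 at 1000 UMIs per cell, 2.20 as a mean of CPM per cell, 2.51 without near-identical copies, 2.20 without core-high cells and, in a setting chosen after seeing the data, 1.47 without Ifi27l2a. The core-high share in skin, 0.547%, became 2.17% at 2 or more and 0.203% at 4 or more core UMIs, 1.08% at 1500 UMIs per cell, 0.203% without Isg15 in the core and 1.096% in cells with a Foxp3 UMI (4 cells). In lung, 2.94% became 8.40%, 1.58%, 5.39%, 2.37% and 3.37% (10 cells) in the same order, and 3.42% with another random draw; the cause of each shift was not tested. Leaving out the barcodes found in both libraries, also chosen after seeing the data, gave 11 calls, a median of 0.71 and core-high shares of 0.554% and 2.93%.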
